A study of Mus musculus with 16 samples.

Results

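The Harlequin comparison set 4 libraries of Harlequin mutant cerebral cortex (Hq-mut) against 4 of littermate wild-type cortex (Hq-WT), paired by the replicate number in their labels. These are 8 of the 16 samples of the series, chosen by genotype label alone; the other 8 belong to a knock-in line that carries an arginine 200 deletion in Aifm1 (Aifm1-KI and Aifm1-WT). Mice were about 180 postnatal days old when cortex was collected, and no group was treated. The labels name the Hq stock B6CBACa Aw-J/A-Aifm1Hq/J and yet give C57BL/6 as the strain of all samples, controls included. They do not say that each library is 1 animal or that libraries with the same number are siblings, so each p-value rests on the spread among these libraries, which may be technical.

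The product of Aifm1, apoptosis-inducing factor, binds FAD and sits in the space between the mitochondrial membranes. It holds the import protein CHCHD4 (MIA40), through which many small subunits and assembly factors of the respiratory chain enter that space, and it can move to the nucleus in some forms of cell death. Harlequin is a proviral insertion in the gene that lowers its expression, and Harlequin mice are known for progressive loss of cerebellar and retinal neurons with a complex I defect. Cortex holds neurons and glia together with vessels, so each level is a mixture over cell types, and fewer cells of a type cannot be told apart from less RNA per cell.

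The deposited values were whole-number read counts per Ensembl gene. Hq-WT 3 was the shallowest library, with 10671580 counts, and Hq-mut 2 the deepest, with 26603396, so that a count of 0 allowed up to 0.281 and 0.113 CPM (counts scaled to library size with TMM factors), taking 3 counts as the limit. Same-numbered libraries deviated together from their group means: across genes the correlation of deviations was 0.408 to 0.534 in the 4 same-numbered combinations and -0.386 to 0.0983 in the other 12. Markers of other tissues were high in some libraries, as the plot of marker levels shows. Summed choroid plexus markers were at 6187 CPM in Hq-WT 2 and at 178 to 590 CPM in the other 7 libraries, and a liver list at 5158 CPM in Hq-WT 2, 372 in Hq-mut 2 and 8.84 to 117 CPM in the others. Of 19 liver genes only 4 passed the filter on low counts, so the liver values cover these alone. Transthyretin (Ttr), a choroid plexus gene, is in both lists, and the liver list was not summed without it. Whether liver transcripts were present was therefore not tested. Summed striatal markers were at 838 CPM in Hq-mut 3 against 239 to 355 CPM elsewhere. Markers of cortical excitatory neurons had a mean log2 CPM of 7.05 to 7.28 in every library.

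**Figure D1:**
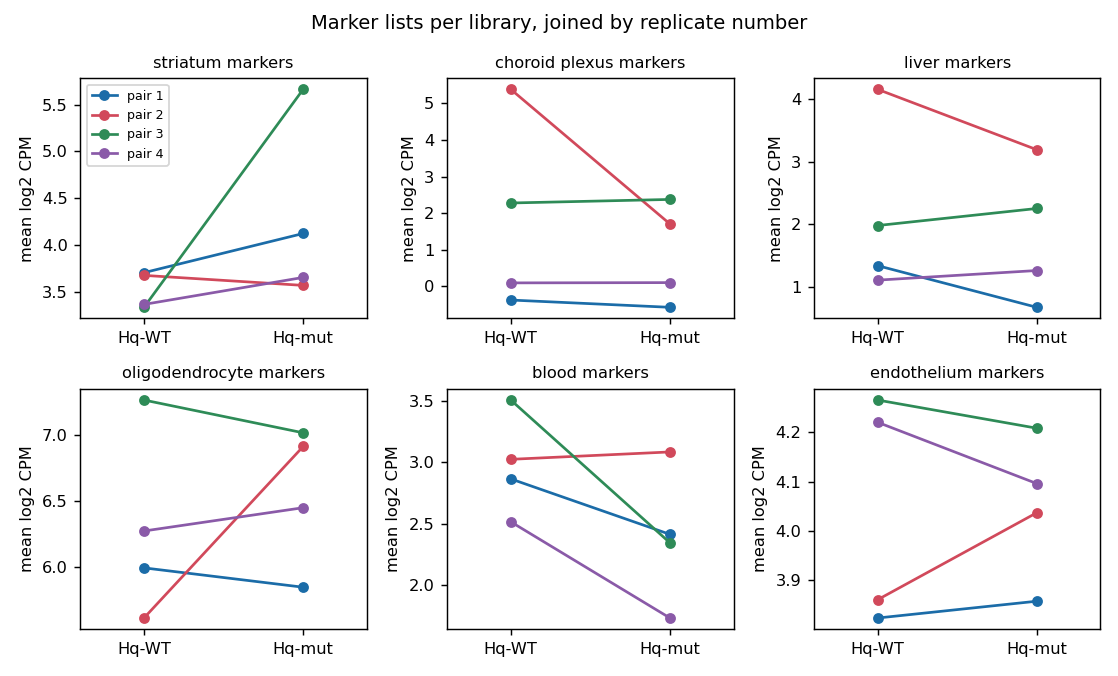
Mean log2 CPM over 6 marker lists (y axis) in Hq-WT and Hq-mut (x axis); each point is a library and each line joins the 2 libraries of a pair. Choroid plexus and liver markers peak in Hq-WT 2, striatal markers in Hq-mut 3, and the oligodendrocyte line of pair 2 rises from 5.61 to 6.91. The liver list is the 4 of 19 genes that passed the filter on low counts, among them the choroid plexus gene Ttr.

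The sequences of 4 promoters are shown first, since the vasoconstrictor gene Edn1 was one of 3 genes to pass the test and Trib3, Asns and Aars belong to the stress-response list described below. Each runs 5′ to 3′ on the gene's strand, from 250 bases before to 30 bases after the RefSeq start on GRCm38.p6. For Edn1 (chr13:42301226-42301505, plus strand), capitals mark matches of ACGTG, the core of hypoxia-response elements, and of AGATAA, which GATA transcription factors bind. For Trib3 (chr2:152344031-152344310, minus strand), Asns (chr6:7693180-7693459, minus strand) and Aars (chr8:111033592-111033871, plus strand), capitals mark TGATGNAA, the core of the C/EBP-ATF response element through which ATF4 acts. Both strands were searched, so a match can read in reverse.
Edn1: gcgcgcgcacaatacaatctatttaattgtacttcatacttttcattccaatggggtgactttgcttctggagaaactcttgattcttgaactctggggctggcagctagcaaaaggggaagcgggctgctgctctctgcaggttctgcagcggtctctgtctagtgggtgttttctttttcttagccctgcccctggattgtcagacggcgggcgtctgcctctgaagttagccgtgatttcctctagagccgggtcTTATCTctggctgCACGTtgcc
Trib3: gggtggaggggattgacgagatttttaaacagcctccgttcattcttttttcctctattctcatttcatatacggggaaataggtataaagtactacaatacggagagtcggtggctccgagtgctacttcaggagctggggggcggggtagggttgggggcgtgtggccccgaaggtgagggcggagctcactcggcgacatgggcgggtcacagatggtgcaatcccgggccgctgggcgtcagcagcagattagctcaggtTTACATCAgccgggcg
Asns: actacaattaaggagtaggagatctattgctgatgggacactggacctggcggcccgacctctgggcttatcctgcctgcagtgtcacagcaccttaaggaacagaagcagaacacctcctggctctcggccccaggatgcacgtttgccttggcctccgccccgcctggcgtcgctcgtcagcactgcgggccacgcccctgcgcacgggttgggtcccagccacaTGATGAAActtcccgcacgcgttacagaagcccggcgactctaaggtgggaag
Aars: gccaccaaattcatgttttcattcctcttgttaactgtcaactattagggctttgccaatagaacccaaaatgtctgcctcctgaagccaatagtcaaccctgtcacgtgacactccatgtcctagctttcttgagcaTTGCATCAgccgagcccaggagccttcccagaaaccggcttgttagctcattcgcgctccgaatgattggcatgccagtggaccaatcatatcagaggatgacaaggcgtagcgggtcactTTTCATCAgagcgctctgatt
Over the first 300-base window of 27025 genes in the RefSeq table, ACGTG occurred in 19.7%, AGATAA in 11.4% and TGATGNAA in 4.06%. The AP-1 motif TGANTCA, found in 7.93% of windows, had no match in the Edn1 window.

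Each gene was asked whether it passed the paired test, whether its sign agreed in all 4 pairs, and whether mutant and wild-type libraries overlapped. After the filter on low counts 17969 genes were tested with replicate number as a block. The edgeR quasi-likelihood test called 3 genes (0.0167%) at an adjusted p under 0.05, 2 higher (0.0111%) and 1 lower (0.00557%) in Hq-mut. At an unadjusted p under 0.05 there were 1433 genes (7.97%), 685 higher (3.81%) and 748 lower (4.16%). The sign agreed in all 4 pairs for 3181 genes (17.7%), of which 1604 (8.93%) were higher and 1577 (8.78%) lower. Among these 3181 genes, 1129 (6.28% of all tested) also had an unadjusted p under 0.05, 542 higher (3.02%) and 587 lower (3.27%). Mutant and wild-type libraries did not overlap for 303 genes (1.69%), 125 higher (0.696%) and 178 lower (0.991%). With no replicate block the edgeR test called 3 genes (0.0167%), and 385 (2.14%) had an unadjusted p under 0.05. A difference between the Harlequin and knock-in effects was called for 2 of 19129 genes (0.0105%). Most agreeing differences were small, with a median size of 0.18 on the log2 scale among the higher genes and 0.25 among the lower ones. Only 23 higher and 22 lower genes exceeded a log2 fold change of 1. The median over all genes tested was 0.01.

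Aifm1 (ENSMUSG00000036932), on the minus strand of GRCm38 chromosome X from 48474944 to 48513563, fell in every pair. It was at 3.64, 2.12, 3.21 and 3.87 CPM in Hq-mut 1 to 4 and at 22.6, 24.8, 23.5 and 23.1 CPM in Hq-WT 1 to 4. All 4 mutant libraries lay far below all wild types, and the wild types hardly differed among themselves. The pair differences were -2.60, -3.49, -2.83 and -2.55 on the log2 CPM scale, and the paired fit gave -2.89 (SE 0.17) with an edgeR adjusted p of 0.00101, so that the mutant level was 7.40-fold lower. In Aifm1-KI the same gene had a log2 fold change of 0.07, and the difference of the mutants' effects was -2.96 (SE 0.19, edgeR adjusted p = 0.000131).

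Edn1 (ENSMUSG00000021367, GRCm38 chromosome 13 42301476 to 42307990, plus strand), which encodes the vasoconstrictor endothelin-1, rose in every pair. Hq-mut 1 to 4 held 7.48, 10.5, 8.63 and 8.11 CPM, and Hq-WT 1 to 4 held 2.08, 1.88, 2.31 and 2.97 CPM. The lowest mutant library was above the highest wild type by more than the whole spread of the wild types. In the paired fit this was 1.91 on the log2 scale (SE 0.18), or 3.75-fold, with an edgeR adjusted p of 0.0231. Leaving out a pair kept it between 1.71 and 2.08, but without pair 1 or pair 3 it did not pass (edgeR adjusted p = 0.173 and 0.361). In Aifm1-KI it was at 0.19, and the difference between the lines, 1.72 (SE 0.28), did not pass (edgeR adjusted p = 0.170).

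Gm6166 (ENSMUSG00000074280), a processed pseudogene at 57483963 to 57484371 of GRCm38 chromosome 9, also rose, from 1.597, 1.53, 1.295 and 1.58 CPM in Hq-WT 1 to 4 to 8.88, 8.55, 4.62 and 5.34 CPM in Hq-mut 1 to 4. Mutants 1 and 2 were higher than mutants 3 and 4, and no mutant library overlapped a wild type. Its paired estimate was 2.17 (SE 0.19) with an edgeR adjusted p of 0.0147, against -0.06 in Aifm1-KI, with a difference of 2.22 (SE 0.26, edgeR adjusted p = 0.0340). Its level is uncertain, because 189 of its 359 words of 51 bases, the read length, also occur in transcripts of other genes, mainly the fatty acid-binding protein gene Fabp5. Fabp5, looked up for this reason, was at 7.07, 15.6, 8.98 and 9.25 CPM in Hq-mut 1 to 4 against 10.4 to 13.03 CPM in Hq-WT, and its paired estimate was -0.25 (SE 0.16) with an edgeR adjusted p of 0.717. Without pair 1 or pair 3 the Gm6166 call was lost (edgeR adjusted p = 0.173 and 0.142).

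**Figure D2:**
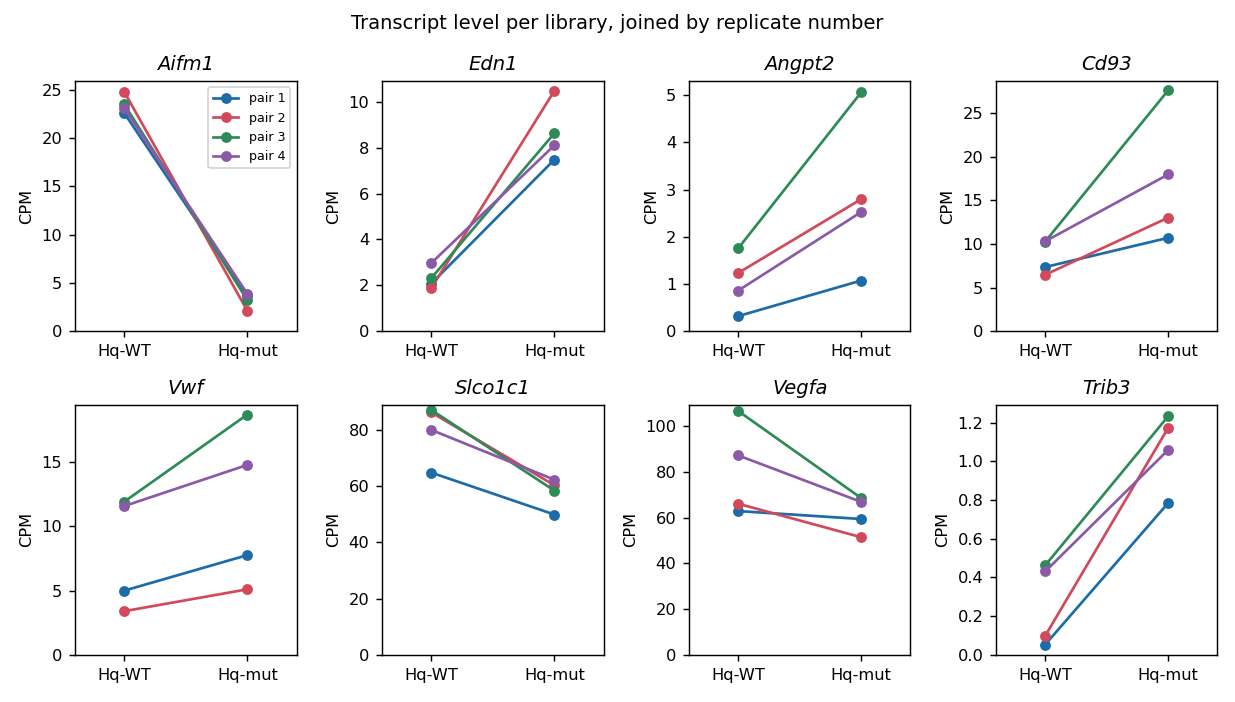
CPM (y axis, from 0) of 8 genes in Hq-WT and Hq-mut libraries (x axis), with a line joining each pair. Aifm1 falls to 2.12 to 3.87 CPM and Edn1 rises to 7.48 to 10.5 CPM; Angpt2, Cd93, Vwf and Trib3 are higher and Slco1c1 and Vegfa lower in each mutant than in its own pair's wild type, with no overlap between groups for Cd93, Trib3 and Slco1c1.

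The next genes were ranked by the smallest of their 4 pair differences, 12 per direction, among genes whose mean log2 CPM reached 1, leaving out predicted genes and pseudogenes. Besides Edn1 and Aifm1 none of these 24 passed the edgeR quasi-likelihood test (adjusted p 0.263 to 0.568), so their values describe the libraries only. DESeq2 with the replicate block also called Igfbp2, Ly6a, Cpne7, Cd93, Nell1, Pxdn and Slco1c1. The likelihood ratio test with that block called these and also Hspg2, Vwf, Dnah8, Mill2, Bcam, Rrad and Hba-a2. The 12th gene up, Vwf, had a smallest difference of 0.349 and the next, Krt80, 0.347; the 12th down, Slco1c1, had 0.360 and the next, Rab11fip1, 0.351.

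Among the 12 higher genes, Cd93, an endothelial receptor for matrix, was at 10.7, 13.01, 27.6 and 18.0 CPM in Hq-mut 1 to 4 and at 7.35, 6.47, 10.3 and 10.3 CPM in Hq-WT 1 to 4. Every mutant library was above every wild type. Cd93 had an estimate of 0.94 (SE 0.14) and an edgeR adjusted p of 0.271. Vwf, the von Willebrand factor of endothelium, was at 7.77, 5.11, 18.7 and 14.8 CPM against 5.01, 3.41, 11.9 and 11.6 CPM. Its groups overlapped widely, while the pair differences were close together at 0.62, 0.57, 0.65 and 0.35. Hspg2, the basement membrane proteoglycan perlecan, had a log2 fold change of 0.57 (SE 0.12), with pair differences of 0.39 to 0.92. Ly6a, an antigen of endothelial and stem cells, had the largest log2 fold change of the set after Edn1, 1.70 (SE 0.35), but its pairs ranged from 0.43 to 2.81. In its transcripts, 18.5% of 51-base words occur in another gene, mainly Ly6c1.

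Other genes of the higher set have other roles. The retinol-binding protein receptor gene Stra6 had 0.98 (SE 0.29), with 2.26 in pair 4 and 0.51 to 0.63 in the other 3, and 0.56 without pair 4. Dnah8, an axonemal dynein heavy chain, was at 0.88 (SE 0.21), and Thsd4, a protein of microfibrils, at 0.84 (SE 0.20). Mill2, an MHC class I-like gene, was at 0.69 (SE 0.16), the secreted protein gene Nell1 at 0.65 (SE 0.13), Adamtsl1 at 0.64 (SE 0.15) and the antiviral zinc-finger gene Zc3hav1 at 0.56 (SE 0.14). Mill2 and Stra6 had no overlap between groups.

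On the lower side, Igfbp2, which encodes an insulin-like growth factor-binding protein, was at 8.64, 19.1, 19.4 and 18.5 CPM in Hq-mut 1 to 4 and at 18.6, 83.4, 37.8 and 28.4 CPM in Hq-WT 1 to 4. Its highest value was in Hq-WT 2, the library with the highest choroid plexus markers. Its log2 fold change was -1.22 (SE 0.21), and -0.87 without pair 2 (edgeR adjusted p = 0.0793). Sytl1, a synaptotagmin-like gene, was at -1.30 (SE 0.35), with -2.48 in pair 2, and at -0.72 without that pair. Any part of other tissue in Hq-WT 2 in these values was not tested.

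Cpne7, a calcium-dependent membrane-binding copine, was at 25.6, 27.5, 22.5 and 16.01 CPM in Hq-mut 1 to 4 against 57.6, 41.3, 34.0 and 24.3 CPM in Hq-WT 1 to 4. Both groups spread widely with some overlap, but each mutant was lower than its partner, by 1.17 in pair 1 and 0.59 to 0.60 in the others on the log2 scale. The log2 fold change was -0.74 (SE 0.11), against 0.86 in Aifm1-KI, a difference of -1.61 (SE 0.24, edgeR adjusted p = 0.170). Plekhg4, a guanine nucleotide exchange factor, showed -0.65 (SE 0.15) against 0.94 in Aifm1-KI (difference -1.60, SE 0.22, edgeR adjusted p = 0.124). Neither difference passed the test.

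Slco1c1, the thyroxine transporter of brain endothelium, was at 49.8, 60.2, 58.3 and 62.2 CPM in Hq-mut 1 to 4 and at 64.7, 86.1, 86.9 and 79.9 CPM in Hq-WT 1 to 4. All mutants lay below all wild types, at -0.46 (SE 0.07) with an edgeR adjusted p of 0.290. Rrad, a small GTPase, was also without overlap, at -1.19 (SE 0.27). Pxdn, a peroxidase of the matrix, was at -0.53 (SE 0.10), the laminin receptor gene Bcam at -0.49 (SE 0.10), the matrix genes Ecm2 and Mmp28 at -0.71 (SE 0.17) and -0.50 (SE 0.16). Hba-a2, an alpha-globin gene, was at -0.87 (SE 0.15) without overlap, but 89.1% of its 51-base words also occur in other transcripts, mainly those of Hba-a1.

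**Figure D3:**
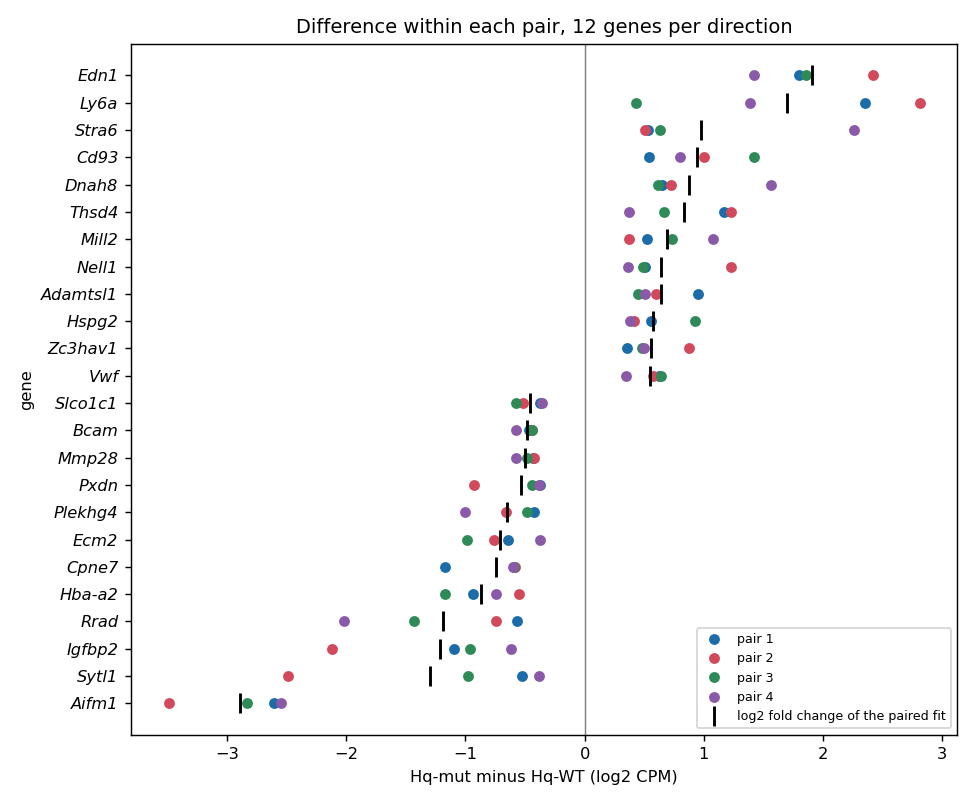
Difference of Hq-mut minus Hq-WT in log2 CPM (x axis) within each of the 4 pairs (coloured points) for the 12 higher and 12 lower genes ranked by their smallest pair difference (y axis); the black tick is the log2 fold change of the paired fit. Edn1 and Aifm1 lie apart from the rest, and Ly6a, Stra6, Sytl1 and Igfbp2 have 1 or more pairs far from the others.

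Genes were then grouped by function and by cell or tissue source, in 43 lists of 773 genes, plus the X-linked neighbours of Aifm1. For each list the number of tested members with the same sign in all 4 pairs was read beside the share over all genes, 8.93% higher and 8.78% lower. Apart from Edn1, the edgeR quasi-likelihood test called no member of a list. With the replicate block, DESeq2 and the likelihood ratio test also called Scn4b, Slco1c1, Dio2, Apln and Angpt2, and only the latter called Trib3, Hba-a2 and Prr32. A list member passed the low-count filter on its own counts, and members of a list can share regulation and cell type, so the counts describe these libraries. Members and lists were also chosen with earlier results of these data known, so a share above that of all genes can come partly from that choice.

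**Figure D4:**
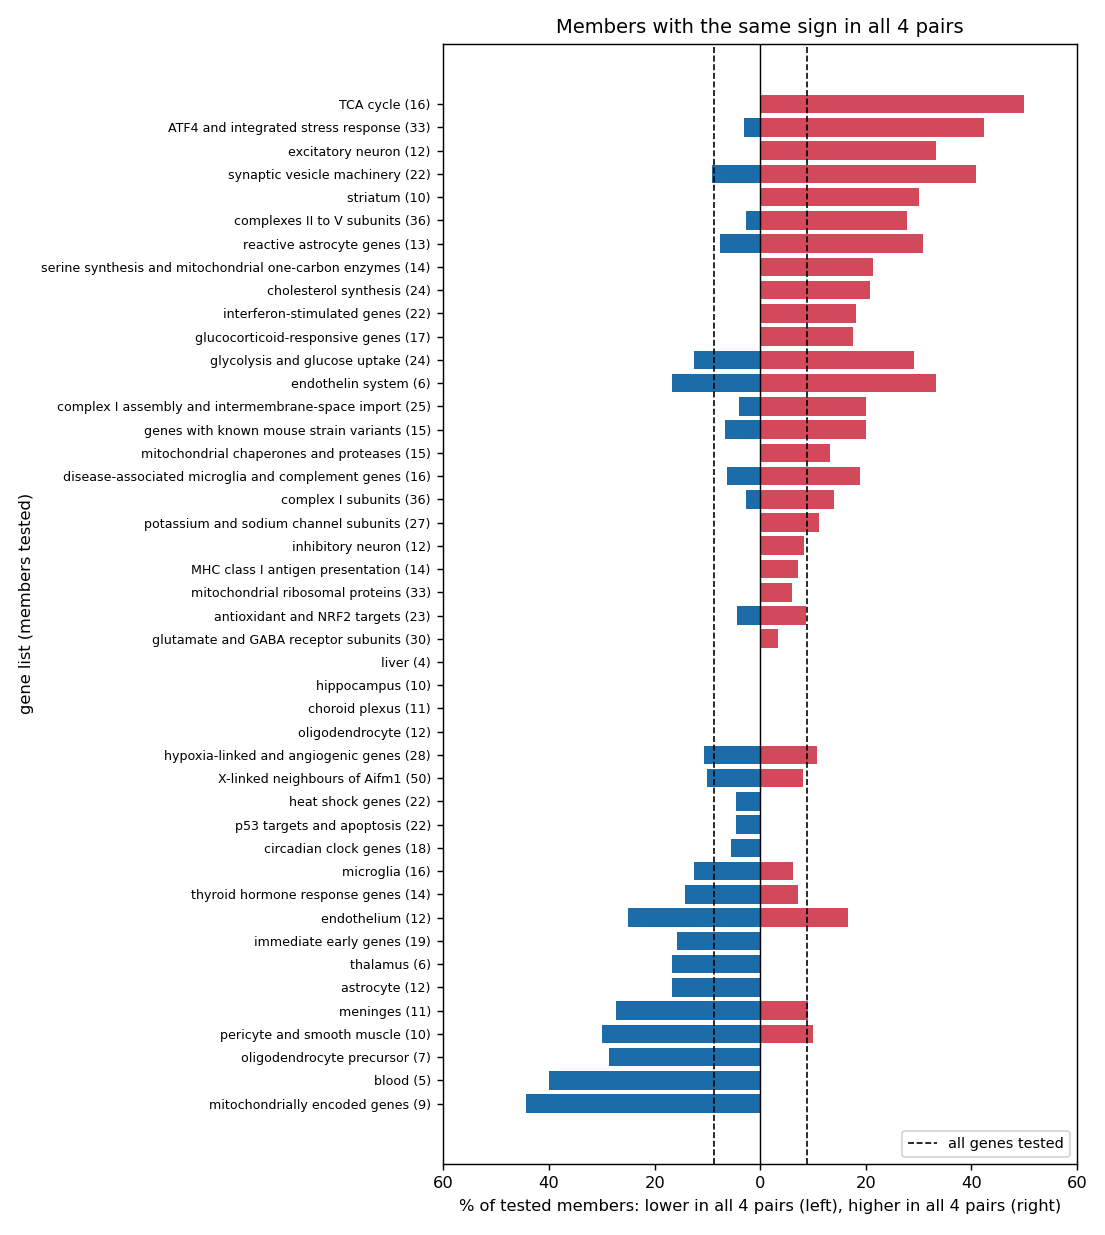
Share of tested members (x axis, %) lower in all 4 pairs (blue, left) or higher in all 4 pairs (red, right) for 44 gene lists, with the number tested in brackets; dashed lines give the shares over all genes, 8.78% and 8.93%. The TCA cycle (50%), ATF4 (42.4%) and synaptic vesicle (40.9%) lists lie farthest right and mitochondrially encoded genes (44.4%) farthest left. The lists were chosen with earlier results of these data known.

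Genes of the integrated stress response, which the transcription factor ATF4 drives when translation is restrained, were higher in all 4 pairs for 14 of 33 tested members (42.4%) and lower for 1, the cystathionine lyase gene Cth. The 14 were Trib3, Chac1, Atf5, Sesn2, Asns, Jdp2, the amino acid transporters Slc7a1 and Slc7a3, and the cytosolic tRNA synthetase genes Aars, Gars, Iars, Nars, Sars and Yars. Their log2 fold changes ran from 0.14 to 2.12. Of the 33, 9 were higher at an unadjusted p under 0.05 (3.81% of all genes were), and the list's median was 0.15. Without pair 2 the median was 0.10, and 17 of 33 were higher in the other 3 pairs, where 20% of all genes were.

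Asns, asparagine synthetase, was at 82.1, 100.5, 69.2 and 71.6 CPM in Hq-mut 1 to 4 and at 71.9, 80.3, 51.4 and 61.9 CPM in Hq-WT 1 to 4. The groups overlapped, yet each mutant was above its partner by 0.19 to 0.43 (estimate 0.29, SE 0.07, with an edgeR adjusted p of 0.523). Trib3, a pseudokinase induced by ATF4, was at 0.785, 1.17, 1.23 and 1.06 CPM against 0.0533, 0.0987, 0.462 and 0.431 CPM. These rest on 104 reads in the mutants and 17 in the wild types, with 1 to 9 per wild-type library, so its log2 fold change of 2.12 (SE 0.44) is uncertain. Atf5, a transcription factor of the same response, was at 0.43 (SE 0.12), with 0.87 in pair 2 and 0.26 to 0.33 in the others. Aars, the alanyl-tRNA synthetase, was at 0.20 (SE 0.07), and its mutant libraries did not overlap the wild types. Of the 14 genes, 12 have a promoter window in the RefSeq table, and 7 of these 12 (58.3%) hold TGATGNAA. The motif was in 4 of 14 windows (28.6%) of the other tested members and in 4.06% of all windows. The list was drawn up from ATF4 response genes, so a share above that of all windows was given in advance. The split of the list uses the signs of these same libraries and few windows. Any part of the motif in these differences was not tested. In Trib3 the match began 14 bases after the start, in Asns 23 bases before it, and in Aars 112 bases before and 9 after.

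**Figure D5:**
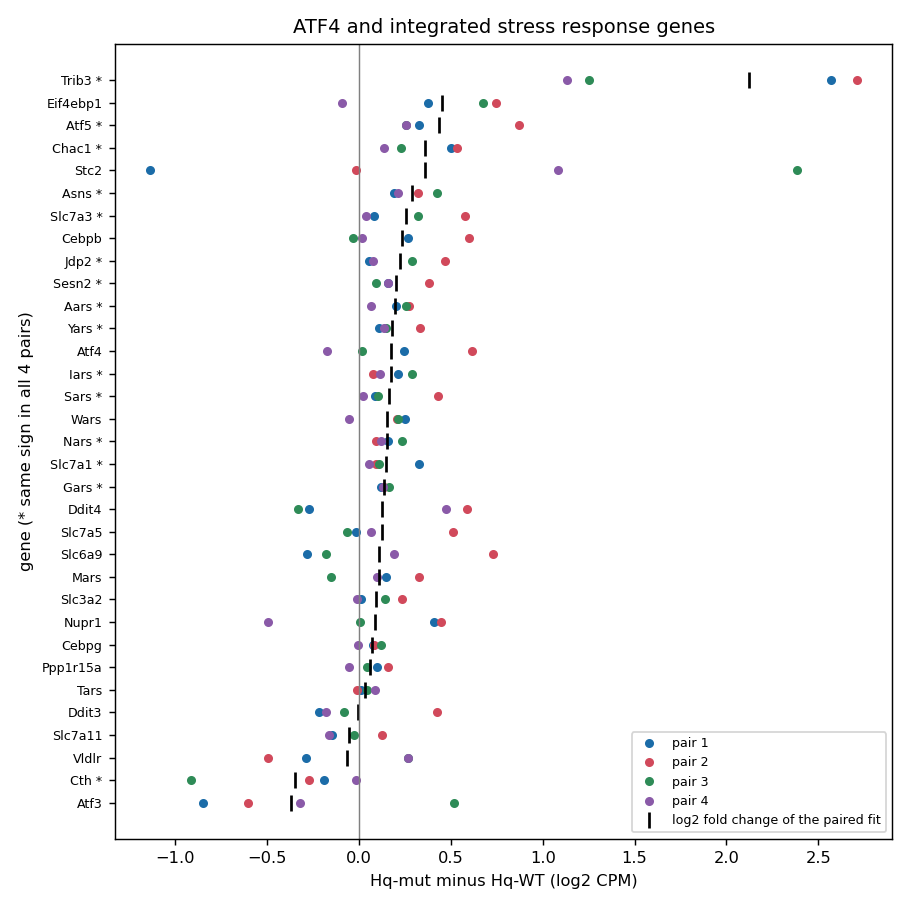
Difference of Hq-mut minus Hq-WT in log2 CPM (x axis) for the 33 tested ATF4 and integrated stress response genes (y axis), with a coloured point per pair and a black tick for the paired fit. Stars mark the 15 genes whose sign agreed in all 4 pairs, 14 of them higher.

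Serine synthesis and mitochondrial one-carbon enzymes, some of which are ATF4 targets, had 3 of 14 higher in all pairs and 0 lower. Mthfd2, a mitochondrial folate enzyme, was at 0.47 (SE 0.16), and Aldh1l2, a mitochondrial formate-producing enzyme, at 0.50 (SE 0.18). In pair 2 these 2 genes were higher by 0.88 and 0.90. Mitochondrial chaperones and proteases had 2 of 15 higher, Dnaja3 at 0.20 (SE 0.07) and Afg3l2 at 0.14 (SE 0.06). Heat shock genes had 0 of 22 higher and 1 lower, the small heat shock protein gene Hspb8 at -0.39 (SE 0.16), and at -0.21 without pair 2.

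Nuclear genes of energy metabolism showed small differences. Among TCA cycle enzymes 8 of 16 were higher in all 4 pairs and 0 lower, with log2 fold changes of 0.08 to 0.16 and a list median of 0.07. Mdh1, cytosolic malate dehydrogenase, was at 0.15 (SE 0.06) and Mdh2, its mitochondrial form, at 0.15 (SE 0.07). Idh3a, an isocitrate dehydrogenase subunit, was at 0.14 (SE 0.06). In glycolysis, 7 of 24 were higher and 3 lower. Eno2, neuronal enolase, was at 0.20 (SE 0.06), and Tpi1 and Pfkl at 0.20 (SE 0.07) and 0.17 (SE 0.07). Gapdh was lower, at -0.48 (SE 0.13) without overlap, but 24.6% of its words occur in other transcripts, mainly those of Gm7336.

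Respiratory chain lists rested on pair 2. Subunits of complexes II to V were higher in all 4 pairs for 10 of 36 and lower for 1, with a median of 0.10. The pair medians were 0.02, 0.41, -0.03 and -0.05, and without pair 2 the median was -0.03, with 10 higher and 10 lower in the other 3 pairs. In those 3 pairs 20% of all genes were higher and 18.5% lower. Uqcrc2 of complex III was at 0.16 (SE 0.07), Cox5a of complex IV at 0.15 (SE 0.07), and the ATP synthase genes Atp5c1 and Atp5b at 0.14 (SE 0.06) and 0.14 (SE 0.07). For complex I, 5 of 36 were higher and 1 lower, with a median of 0.08, and of -0.04 without pair 2, when 6 were higher and 13 lower. Ndufa9 was at 0.21 (SE 0.07) and the flavoprotein subunit gene Ndufv1 at 0.17 (SE 0.08), or 0.11 without pair 2. Complex I assembly and intermembrane-space import genes had 5 of 25 higher and 1 lower. Chchd4, whose protein binds apoptosis-inducing factor, was at 0.17 (SE 0.08).

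Of the 9 mitochondrially encoded transcripts tested, out of 15 in the list, 4 were lower in all 4 pairs and 0 higher, with a median of -0.21. Only 10 of the 15 had any count in these libraries, and why the rest had none was not tested. mt-Nd2, a complex I subunit, was at 3468, 3355, 3127 and 3282 CPM in Hq-mut 1 to 4 and at 3522, 4409, 4645 and 4375 CPM in Hq-WT 1 to 4. All mutants were below all wild types, although pair 1 differed by only -0.02 (estimate -0.35, SE 0.10, with an edgeR adjusted p of 0.523). The ribosomal RNAs mt-Rnr1 and mt-Rnr2 were at -0.32 (SE 0.11) and -0.33 (SE 0.12), and mt-Nd1 at -0.22 (SE 0.09). Both ribosomal RNAs were at -0.18 without pair 4, and mt-Nd1 at -0.11 without pair 3. The list median was 0.03 in pair 1, -0.09 in pair 2, -0.35 in pair 3 and -0.35 in pair 4. Without pair 3 it was -0.11. Mitochondrial ribosomal protein genes had 2 of 33 higher and 0 lower, a share below that of all genes.

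Antioxidant genes had 2 of 23 higher and 1 lower, with glutathione reductase (Gsr) at 0.24 (SE 0.09; 0.16 without pair 2). For p53 targets and apoptosis the counts were 0 of 22 higher and 1 lower, Casp9 at -0.29 (SE 0.14), and at -0.08 without pair 2. Cholesterol synthesis genes were higher for 5 of 24 and lower for 0, with a median of 0.13, and of 0.08 without pair 2. Hmgcs1, an early enzyme of that pathway, was at 0.17 (SE 0.06) and Sqle at 0.20 (SE 0.07).

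In the endothelin system Edn1 and Edn3, another ligand, were higher in all pairs (Edn3 0.41, SE 0.14), and the converting enzyme gene Ece2 lower (-0.52, SE 0.20), of 6 tested; 54.5% of the words of Ece2 occur in other transcripts, mainly Gm49333. Of 28 hypoxia-linked and angiogenic genes, 3 were higher and 3 lower, close to the shares of all genes. Angpt2, an antagonist ligand of the Tie2 receptor made by sprouting endothelium, was at 1.07, 2.80, 5.06 and 2.53 CPM in Hq-mut 1 to 4 and at 0.320, 1.23, 1.76 and 0.862 CPM in Hq-WT 1 to 4. The groups overlapped between pairs, while the pair differences were close, at 1.497, 1.12, 1.48 and 1.45. The paired fit gave Angpt2 1.45 (SE 0.20) with an edgeR adjusted p of 0.220, against 1.04 in Aifm1-KI. Vegfa, the main vascular growth factor, was at 59.5, 51.5, 68.6 and 66.9 CPM in Hq-mut 1 to 4 and at 62.9, 66.2, 106.7 and 87.3 CPM in Hq-WT 1 to 4. It was lower in each pair, at -0.37 (SE 0.09), and so were its receptor gene Flt1 at -0.24 (SE 0.07) and the tip-cell peptide gene Apln at -0.55 (SE 0.11). Apln lies on the minus strand of chromosome X from 48025146 to 48034853, close to Aifm1.

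Of 12 endothelial markers, Pecam1 (0.29, SE 0.10) and Emcn (0.31, SE 0.13) were higher in all pairs, and Tek, the Tie2 receptor gene (-0.40, SE 0.11), Flt1 and Abcb1a were lower, with a list median of 0.07. The mean log2 CPM of the 12 was 3.86 to 4.21 in Hq-mut and 3.82 to 4.27 in Hq-WT, so the mean marker level did not separate the groups. Within pairs 1 to 4 the list medians were 0.07, 0.19, -0.13 and -0.13. Eng, the endothelial TGF-beta co-receptor and named after its values were seen, had 0.47 (SE 0.10). Among pericyte and smooth muscle markers 1 of 10 was higher and 3 were lower, among them the pericyte gene Rgs5 at -0.34 (SE 0.09) and the potassium channel regulator Abcc9 at -0.31 (SE 0.12).

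Synaptic vesicle genes were higher in all 4 pairs for 9 of 22 (40.9%) and lower for 2, with a median of 0.12. Dnm1, the endocytic GTPase dynamin 1, was at 0.16 (SE 0.07) without overlap between groups, Sh3gl2 at 0.14 (SE 0.06) and synaptophysin (Syp) at 0.14 (SE 0.07). Excitatory neuron markers had 4 of 12 higher and 0 lower. The deep-layer factor gene Bcl11b was at 0.32 (SE 0.12), with 0.73 in pair 3, and Tbr1 at 0.18 (SE 0.07). Bcl11b is also a striatal gene, and without pair 3, whose mutant had the highest striatal markers, it was at 0.19. Any part of striatal tissue in this value was not tested. Inhibitory neuron markers had 1 of 12 higher, Slc32a1 at 0.14 (SE 0.08; 0.09 without pair 3), and glutamate and GABA receptor subunits 1 of 30, Grin1 at 0.08 (SE 0.06). Without pair 2, 12 of 30 receptor subunits were higher and 3 lower, where 20% of all genes were higher and 18.5% lower.

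Among potassium and sodium channel subunits 3 of 27 were higher and 0 lower, with a median of 0.05. Without pair 2 the median was 0.16, and 15 of 27 were higher and 1 lower in the remaining pairs. There 20% of all genes were higher and 18.5% lower. Scn4b, a sodium channel beta subunit, was at 81.3, 81.9, 173 and 140 CPM in Hq-mut 1 to 4 and at 36.3, 36.8, 84.3 and 117 CPM in Hq-WT 1 to 4. Pairs 3 and 4 were higher than pairs 1 and 2 in both groups, and the pair differences were 1.16, 1.15, 1.04 and 0.26. The estimate for Scn4b was 0.90 (SE 0.15) with an edgeR adjusted p of 0.346, and without pair 4 it was 1.11 (edgeR adjusted p = 0.0194). Scn2b, a related subunit, was at 0.22 (SE 0.07). Scn4b is rich in striatum as well, and without pair 3 it was at 0.84. Immediate early genes, induced by neuronal activity, had 0 of 19 higher and 3 lower and a median of -0.14, which was 0.0030 without pair 4, with Btg2 at -0.36 (SE 0.10) and Nr4a2 at -0.84 (SE 0.26), and at -0.46 without pair 1.

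Of interferon-stimulated genes 4 of 22 were higher and 0 lower, with a median of 0.19, and of 0.08 without pair 2. The membrane protein gene Ifitm3 was at 0.73 (SE 0.19), Irf7 at 0.69 (SE 0.29) and Oasl2 at 0.55 (SE 0.22). MHC class I genes had 1 of 14 higher, Nlrc5 at 0.52 (SE 0.33), or 0.30 without pair 2. Among reactive astrocyte genes 4 of 13 were higher and 1 lower: the complement gene C4b at 0.88 (SE 0.23), the intermediate filament gene Vim at 0.35 (SE 0.09), the protease inhibitor gene Serpina3n at 0.69 (SE 0.25) and Aspg. S1pr3 was lower, at -0.32 (SE 0.12). C4b shares 33.9% of its words, mainly with C4a. Pair 2 gave the largest difference for C4b (1.80) and Serpina3n (1.70), which was at 0.37 without it. Cebpd, an inflammatory transcription factor gene named after its values were seen, was at 0.94 (SE 0.19).

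Astrocyte markers had 0 of 12 higher and 2 lower, Sox9 at -0.28 (SE 0.07) and Slc1a2 at -0.07 (SE 0.07), or -0.03 without pair 3. Microglial markers had 1 of 16 higher, Aif1 at 0.44 (SE 0.15; 0.26 without pair 2), and 2 lower, among them the purinergic receptor gene P2ry13 at -0.38 (SE 0.11) without overlap. Disease-associated microglia and complement genes had 3 of 16 higher and 1 lower, with Ctsb, a lysosomal protease, at 0.17 (SE 0.07). No oligodendrocyte marker of 12 agreed in all pairs. Their pair medians were -0.09, 1.33, -0.24 and 0.15, so that the list median of 0.26 rested on pair 2 and was -0.05 without it. Oligodendrocyte precursor markers had 0 of 7 higher and 2 lower, with Pdgfra at -0.21 (SE 0.08). Without pair 2, 7 of 12 astrocyte, 7 of 16 microglial and 6 of 7 precursor markers were lower, where 18.5% of all genes were. The numbers higher were 0, 1 and 0, where 20% of all genes were.

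Hormone-responsive lists were near the share of all genes. In either direction, 17.6% of the glucocorticoid list and 21.4% of the thyroid hormone list agreed in all 4 pairs, against 17.7% of all genes. Of glucocorticoid-responsive genes 3 of 17 were higher and 0 lower: Fkbp5 at 0.36 (SE 0.08), Zbtb16 at 0.36 (SE 0.09) and Sgk1 at 0.50 (SE 0.15). Fkbp5, which restrains the glucocorticoid receptor, was higher by 0.28, 0.28, 0.32 and 0.59 in pairs 1 to 4, while the list median of 0.14 was -0.0012 without pair 2. In the thyroid hormone list 1 of 14 was higher, Sema7a at 0.16 (SE 0.07), and 2 lower. These were Slco1c1 and the deiodinase gene Dio2, which makes active thyroid hormone in astrocytes, at -0.52 (SE 0.12). Circadian clock genes had 0 of 18 higher and 1 lower, a share below that of all genes. The 1 was Per2, at -0.26 (SE 0.11), or -0.13 without pair 4.

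Lists of other tissues varied between libraries and pairs. Striatal markers were higher in all 4 pairs for 3 of 10, with Tac1 at 0.78 (SE 0.20), Penk at 0.77 (SE 0.25) and Drd1 at 0.63 (SE 0.29). Without pair 3 these were at 0.53, 0.42 and 0.21, and the list median of 0.74 was 0.22. Choroid plexus markers had 0 of 11 agreeing and a median of -1.73, which was -0.03 without pair 2, over the 6 then tested. Blood genes had 0 of 5 higher and 2 lower, Hba-a2 and Hbb-bt, with a median of -0.50, and of -0.26 without pair 3. Meningeal markers had 1 of 11 higher and 3 lower, Slc6a20a at -0.54 (SE 0.14) and Islr at 0.48 (SE 0.15) among them. The hippocampal list had 0 of 10 and the liver list 0 of 4 agreeing. In the thalamic list 1 of 6 was lower, Lef1 at -0.25 (SE 0.16), or -0.16 without pair 4. Any part of tissue carried over at dissection in single results was not tested.

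Over all 4 pairs, genes near Aifm1 had about the share of all genes. Of 50 tested protein-coding genes within 10 Mb of Aifm1 on chromosome X, 4 were higher and 5 lower in all pairs (18% in either direction, against 17.7% of all genes). This rested on pair 2. Without it, 18 of the 50 were higher and 7 lower in the remaining pairs, where 20% of all genes were higher and 18.5% lower. Over chromosome X as a whole the share was 17.7%, and over the autosomes 15.1% to 19.8%. Of 15 genes with known mouse strain variants, 3 were higher and 1 lower (26.7% in either direction), with the glyoxalase gene Glo1 at 0.35 (SE 0.08) and the inflammasome gene Nlrp1b at -0.81 (SE 0.28).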

How the data were processed

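Cortical RNA was sequenced, and the authors deposited whole-number read counts per Ensembl gene for all samples in one table. The submitters' processing notes name STAR 2.6, SAMtools and HTSeq and the mouse build mm10 (GRCm38). Neither the annotation release nor how strand was handled is stated there or in the labels. Counts of 8 libraries were filtered with filterByExpr by group, scaled by TMM factors and tested in R 4.3.3 with the quasi-likelihood test of edgeR 4.0.16, with replicate number as a block and Benjamini-Hochberg adjustment over all 17969 genes tested (threshold 0.05). Pair differences are in log2 CPM with a prior count of 2.

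Same-numbered libraries correlated at 0.408 or more in their deviations from group means, above the minimum of 0.1 in every pair, so the numbers were taken to pair the libraries. That evidence comes from the data, not from a label. The difference between the lines was tested as an interaction over all 16 libraries. Alternatives used no block, DESeq2 1.42.0, limma 3.58.1 (voom), the likelihood ratio test, RLE factors, other filters and each pair left out.

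Named are Aifm1, every called gene, the 12 genes per direction with the largest smallest pair difference, and up to 4 agreeing members of each list with the smallest p. Fabp5, Eng and Cebpd were named after their values were seen. The 14 stress-response genes are listed whole. Members and lists were chosen with earlier results of these data known. Shared sequence was counted as words of the read length in annotated transcripts, and promoter windows came from RefSeq. On simulated counts over 17735 genes, the test recovered 22 of 50 genes changed by a log2 fold of 0.5 and 50 of 50 changed by 1. The simulation gave every gene the same spread between libraries and changed only genes with higher counts. These rates therefore do not carry over to the real libraries, where Ly6a, at 1.70, did not pass (edgeR adjusted p = 0.523). Intervals and limits from counts cover counting error only. A few members that this rule names are not reported here.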

Additional observations from a re-analysis of the deposited data

Results flagged for a closer look

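In groups of 4 libraries, 1 library stood far from the other 3 for several named genes, which chance gives in about 1 in 20 groups. All 111 named genes were searched in both groups, but genes of the same library are not independent, so that rate sets no expected number of cases. Across tested genes, Hq-mut 2 stood apart from the other mutants. The chi-square per gene of its counts against another mutant was 77.4 to 97.8, and 14.4 to 20.1 between the remaining mutants. In log2 CPM, Hq-mut 2 was high for Ndufv1 (7.64), Atp5c1 (7.76), Atp5b (10.3), Dnaja3 (6.24), Mdh1 (9.82), Mdh2 (8.53) and Ctsb (9.22). Hq-WT 2 was high for Cox5a (6.18) and Atp5b (10.1). Hq-mut 1 was low for Igfbp2 (3.13), against 4.22 to 4.28 in the other mutants. Hq-WT 1 was high for Hmgcs1 (8.16), Hq-WT 3 low for Dnm1 (10.2), and Hq-WT 4 low for Per2 (5.77) and Aif1 (2.14).

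The effect in Harlequin differed from that in the knock-in line for Aifm1 (difference -2.96 on the log2 scale) and Gm6166 (2.22) by the edgeR interaction test.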

How the results depend on the processing

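The same 3 genes were called, 2 higher and 1 lower, without the replicate block, where 385 genes had an unadjusted p under 0.05 against 1433 with it. The counts higher and lower were 13 and 19 with DESeq2, 27 and 27 with the likelihood ratio test, and 190 and 178 with no filter on low counts. Leaving out a pair gave 0 to 3 called higher and 1 to 1 lower. Genes higher in all pairs numbered 3425 with no filter, and 2400 to 3627 with a pair left out, when only 3 signs had to agree; genes lower numbered 2273 to 3347. The difference between the lines was called for 1038 genes with no filter, against 2. The cause of these shifts between tools was not tested. Among the 111 named genes no alternative reversed a sign. Most of them were named because their sign agreed in all 4 pairs of these libraries, so a reversal could hardly occur. An uncalled gene is not shown to be unchanged with 4 pairs.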
